A study of Mus musculus with 6 samples.

Results

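Genes of fatty acid oxidation, synthesis and binding were examined in astrocytes of the upper and the deep layers of the mouse neocortex. The set holds 38 genes, taken by matching a list of gene symbols to the symbol column of the deposited expression table. All 38 were among its 43383 rows, and 37 of them had a mean of at least 1 RPKM over the 6 libraries, the level required for a test, as did 13999 rows in all. RPKM is a read number divided by mRNA length and by library depth. The study asked whether astrocytes differ in gene expression between neuronal layers. Upper-layer astrocytes (ULAs, layers II–IV) and deep-layer astrocytes (DLAs, layers V and VI) were sorted as GFP-positive cells from the somatosensory cortex of male Aldh1l1-eGFP mice aged 4 weeks. Both groups carried the same transgene, in which the promoter of Aldh1l1, a gene of folate metabolism used as a marker of astrocytes, drives GFP. The labels give no treatment. The dissection left out white matter, the pial covering and the outermost layer, and gave up a margin between the upper and the deep samples to keep them separate. Each of 3 brains gave 1 ULA and 1 DLA library.

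Fatty acids are first joined to coenzyme A by acyl-CoA synthetases. For oxidation in mitochondria they are carried across the inner membrane as carnitine esters, and are then shortened by a repeated cycle of dehydrogenation, hydration, a further dehydrogenation and cleavage, whose electrons reach the respiratory chain through the electron transfer flavoprotein. In the opposite direction, fatty acids are built from malonyl-CoA, lengthened by elongases and given double bonds by desaturases. Astrocytes are the main cells of the brain known to oxidize fatty acids, and they also make long polyunsaturated fatty acids and hold large amounts of fatty acid binding protein.

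The libraries held between 19.7 and 29.6 M reads, as read from the steps between RPKM values of short mRNAs, with the fewest in the DLAs of brain 2. The 8 astrocyte genes examined summed to between 9476 and 11066 RPKM per library. The genes of oligodendrocyte precursors (0.5 to 0.9 RPKM), microglia (1.2 to 2.1 RPKM), endothelial cells (0.3 to 2.6 RPKM) and neurons (6.1 to 8.8 RPKM) summed to low values in both layers, and those of pericytes and smooth muscle cells summed to 11.2 to 21.9 RPKM. The summed level of 10 oligodendrocyte genes was 109, 111 and 205 RPKM in the ULAs and 210, 245 and 318 RPKM in the DLAs of brains 1, 2 and 3, and 9 of the 10 were higher in the DLAs of every brain. Hemoglobin genes of red cells summed to 0.4, 0.0 and 1.0 RPKM in ULAs and to 14.5, 14.8 and 74.8 RPKM in DLAs. In each brain, the ratio of ULA to DLA values also increased with mRNA length over all rows tested, with Spearman's rho of 0.210, 0.368 and 0.10 in brains 1, 2 and 3.

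Differences between the layers were small for most of the fatty acid genes, as for most of all rows, and 1 of the 37 genes tested passed. Elovl2, an elongase of polyunsaturated fatty acids, was 1.48-fold higher in ULAs. No member passed in the direction of DLAs, where the stearoyl-CoA desaturase gene Scd1 came nearest. Each comparison was made with limma on log2(RPKM + 1) in a model of layer and brain, and a pass required a p under 0.05 after Benjamini-Hochberg adjustment over all rows tested. Over all rows, 0.714% passed as higher in ULAs and 0.914% as higher in DLAs. At an unadjusted p under 0.05, 6 members were higher in ULAs, against 5.64% of all rows, and 4 were higher in DLAs, against 10.8% of all rows. Levels were higher in the ULAs of all 3 brains for 10 members (15.2% of all rows) and higher in the DLAs of all 3 brains for 11 members (23.2% of all rows). The groups did not overlap for 6 members with the higher values in ULAs (6.59% of all rows) and for 7 members with the higher values in DLAs (9.27% of all rows). The smallest p of an exact permutation test would be 0.1 with 3 libraries against 3 and 0.25 with 3 pairs, so none was run on single genes. In sorted cells measured in bulk, fewer cells of a type and less RNA per cell cannot be told apart.

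The log2 fold changes (ULA over DLA) of the 37 members lay between -0.48 and 0.56. Of the members, 36 were within 0.5 of 0, as were 13419 of all 13999 rows tested. The median of the members was -0.054, with medians of -0.044, -0.035 and 0.030 in the 3 brains (SD 0.040), beside a median of -0.027 over all rows. The 95% confidence interval of the difference lay within 0.5 of 0 for 28 members (8925 of the 13999 rows over all). It lay within 1 of 0 for all 37 tested (13618 of the 13999 rows). A limit of 1 is a 2-fold difference in RPKM + 1, not in RPKM. For genes at low levels, such as Acsl5 (mean 1.43 RPKM, interval -0.17 to 0.57), a 2-fold difference in RPKM is smaller than 1 on this scale. It need not lie outside their intervals.

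**Figure D1:**
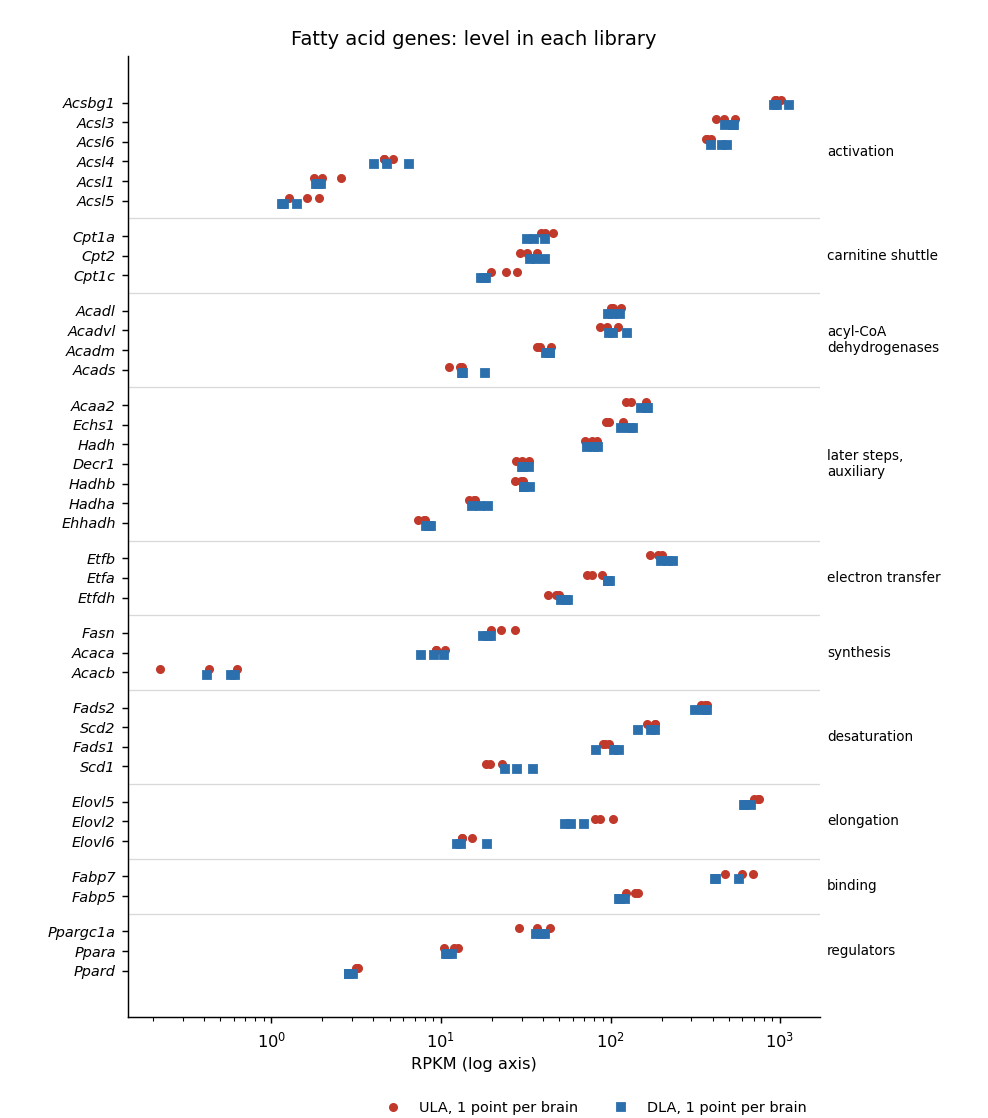
RPKM (log axis) of the 38 fatty acid genes by role, with 1 red point for the ULAs and 1 blue square for the DLAs of each of the 3 brains. Levels span from under 1 RPKM for Acacb to about 1000 RPKM for Acsbg1, and the points of both layers lie close together for most genes.

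**Figure D2:**
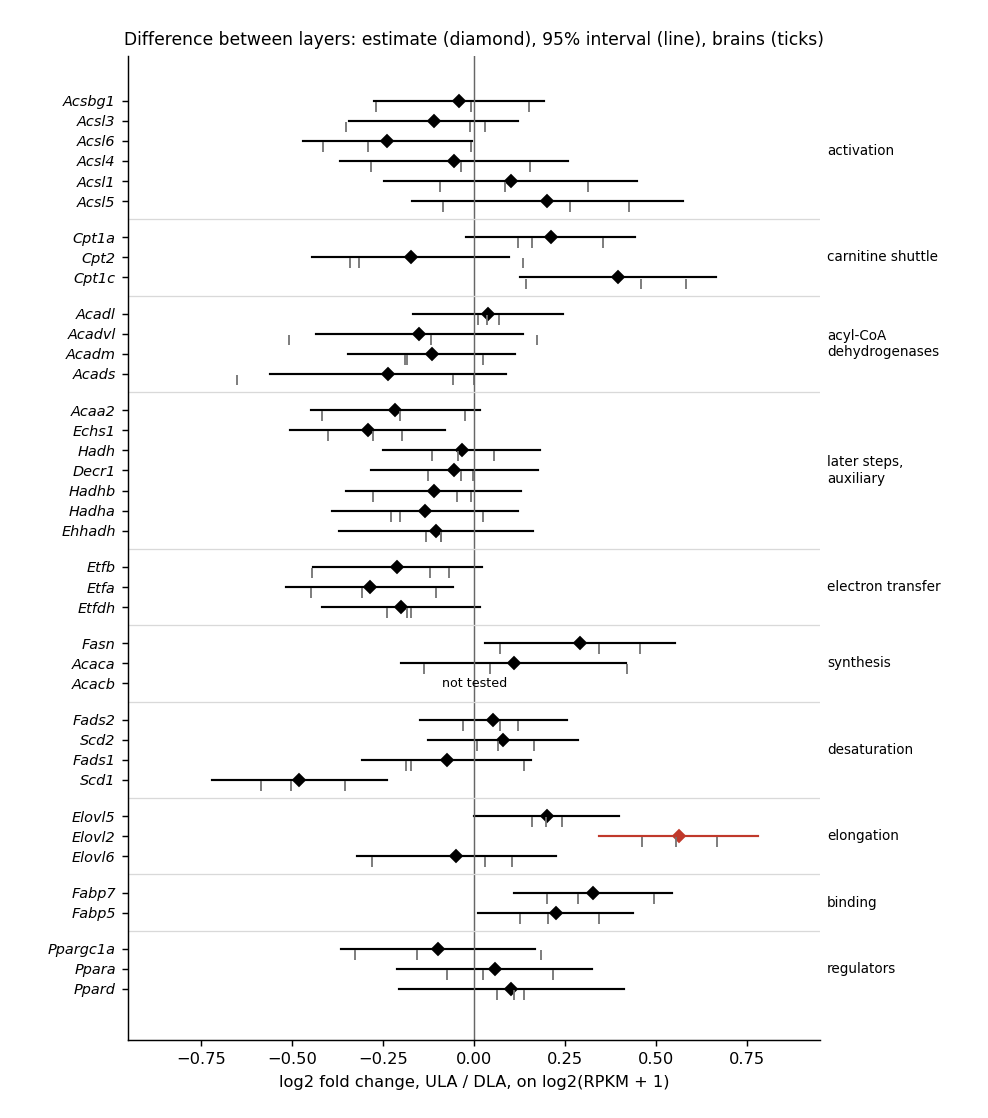
Log2 fold change of ULAs over DLAs on the log2(RPKM + 1) scale for each gene, with the limma estimate as a diamond, its 95% confidence interval as a line and the 3 brains as ticks. Elovl2, in red, is the gene that passed, and the intervals of 27 of the 37 genes tested include 0 (11704 of 13999 over all rows).

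Among the elongases, Elovl2 passed. It elongates polyunsaturated fatty acids on the way to docosahexaenoic acid. Its level was 103, 86.6 and 80.7 RPKM in the ULAs and 70.1, 54.1 and 58.3 RPKM in the DLAs of brains 1, 2 and 3. Every ULA library was above every DLA library, with means of 90.2 ± 11.8 and 60.8 ± 8.28 RPKM (SD, n = 3). The log2 fold change was 0.56 (SE 0.098, 95% confidence interval 0.34 to 0.78, adjusted p = 0.0203, limma with Benjamini-Hochberg adjustment). The call held in 7 of 11 alternative fits, with adjusted p-values from 0.000767 to 0.305. It was lost without the brain in the model (0.232), with no filter on low RPKM (0.305), without the variance trend (0.0804) and without brain 1 (0.115). The first 3 of these settings cannot change the log2 fold change of a gene. Without brain 1 the log2 fold change of Elovl2 was 0.57.

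Elovl5, which acts earlier in the same polyunsaturated series, was the most abundant elongase and exceeded 99.5% of the rows tested. It measured 755, 739 and 707 RPKM in ULAs and 676, 625 and 616 RPKM in DLAs, again without overlap. The difference was smaller than for Elovl2, with a log2 fold change of 0.20 (SE 0.089), and did not pass (adjusted p = 0.305, limma with Benjamini-Hochberg adjustment). The ratio of Elovl2 to Elovl5 was 0.137, 0.117 and 0.114 in ULAs and 0.104, 0.0865 and 0.0946 in DLAs. Elovl6, which lengthens saturated and monounsaturated fatty acids, had means of 14.0 ± 1.07 RPKM in ULAs and 14.7 ± 3.48 RPKM in DLAs (SD, n = 3), with overlapping groups and an interval of -0.32 to 0.22 for the log2 fold change. The 3 elongases summed to 872, 839 and 803 RPKM in ULAs and to 759, 692 and 693 RPKM in DLAs, most of which was Elovl5.

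The promoter sequence of Elovl2 is shown because it was the member that passed, together with those of Fabp7 and Echs1, which had the smallest p-value in each direction among the other members with a promoter window. Each run gives the 250 bases before the transcription start on the strand of the gene, from RefSeq on GRCm38.p6. Elovl2 has more than 1 listed start, and the upstream one is shown. The expression table is on another build, and no coordinates were carried between them. Capitals mark AGGTCA or its reverse complement TGACCT, the sequence bound by monomers and within the dimer sites of nuclear receptors such as the PPAR family.
Elovl2, chr13:41220404-41220653, minus strand: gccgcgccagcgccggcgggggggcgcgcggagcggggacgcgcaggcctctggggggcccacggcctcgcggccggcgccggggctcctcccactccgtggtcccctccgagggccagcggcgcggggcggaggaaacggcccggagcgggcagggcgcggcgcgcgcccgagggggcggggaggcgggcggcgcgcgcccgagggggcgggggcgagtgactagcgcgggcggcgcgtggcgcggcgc
Fabp7, chr10:57784673-57784922, plus strand: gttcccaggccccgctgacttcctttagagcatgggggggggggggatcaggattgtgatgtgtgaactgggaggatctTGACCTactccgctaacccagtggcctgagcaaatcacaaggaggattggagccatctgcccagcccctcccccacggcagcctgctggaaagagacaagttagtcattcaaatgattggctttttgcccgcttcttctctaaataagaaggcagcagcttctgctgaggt
Echs1, chr7:140116422-140116671, minus strand: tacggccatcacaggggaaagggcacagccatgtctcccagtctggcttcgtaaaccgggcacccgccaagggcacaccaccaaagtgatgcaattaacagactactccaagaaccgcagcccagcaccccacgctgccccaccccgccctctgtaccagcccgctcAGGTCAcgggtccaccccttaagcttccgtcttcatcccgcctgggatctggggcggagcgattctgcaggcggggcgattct
The Elovl2 run had 87.2% G and C and 49 CpG sites. The Fabp7 run had 54.8% G and C and 4 CpG sites, and the Echs1 run had 62.8% and 15.

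Promoter windows reaching from 250 bases before to 50 bases after the start were found for 32 of the 38 members (36 windows), out of 32851 windows in all. AGGTCA on either strand stood in 16.3% of all windows and in those of 9 members (Acacb, Acadm, Acadvl, Acsl6, Cpt1a, Cpt1c, Echs1, Elovl6 and Fabp7). Of the 10 members with an unadjusted p under 0.05, 8 had a window and 4 of these held AGGTCA. Members are counted by gene and the share over all by window. The counts of members therefore cannot be set against that share, and enrichment was not tested. A pair of AGGTCA in the same direction 1 base apart, the arrangement of a PPAR response element, stood in 0.0396% of all windows and in 0 of the members' windows. TCACNCCAC, a motif of the sterol response element binding proteins (either strand), stood in 1.24% of all windows and in those of Acsl1 and Ehhadh. These are matches of letters in a short window and say nothing about binding.

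Desaturases make double bonds. Scd1, which makes monounsaturated fatty acids, measured 19.5, 18.4 and 22.9 RPKM in the ULAs and 28.1, 23.8 and 34.9 RPKM in the DLAs of brains 1, 2 and 3. The DLA library was higher in each brain and the groups did not overlap. The log2 fold change of -0.48 (SE 0.108, 95% confidence interval -0.72 to -0.24) narrowly missed the threshold (adjusted p = 0.0614, limma with Benjamini-Hochberg adjustment). It passed in 4 of 11 alternative fits, which were a mean RPKM of at least 5 (adjusted p = 0.0377), the correction for mRNA length (0.0334, with a log2 fold change of -0.58), and the fits without brain 2 (0.0477) and without brain 3 (0.0462), over a range from 0.0334 to 0.391. The summed oligodendrocyte genes given above were likewise higher in every DLA library than in every ULA library, although by a small margin, from 205 RPKM in the highest ULA library to 210 RPKM in the lowest DLA library. The part of oligodendrocyte RNA in the difference of Scd1 was not tested.

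Scd2, the more abundant desaturase of this kind in the brain, measured 176 ± 11.2 RPKM in ULAs and 167 ± 19.1 RPKM in DLAs (SD, n = 3), with a log2 fold change of 0.08 and an interval of -0.13 to 0.29. The ratio of Scd1 to Scd2 was therefore 0.107, 0.113 and 0.126 in ULAs and 0.154, 0.164 and 0.200 in DLAs. Fads2, which catalyses the entry step of polyunsaturated fatty acid synthesis, was the most abundant desaturase at 372, 361 and 344 RPKM in ULAs and 354, 369 and 317 RPKM in DLAs. Its groups overlapped, with a log2 fold change of 0.05 and an interval of -0.15 to 0.26. Fads1, which acts after Fads2 in that series, measured 93.8 ± 3.92 and 99.6 ± 15.3 RPKM (SD, n = 3), with an interval of -0.31 to 0.16. Among the desaturases, Scd1 was thus the member with groups apart.

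**Figure D3:**
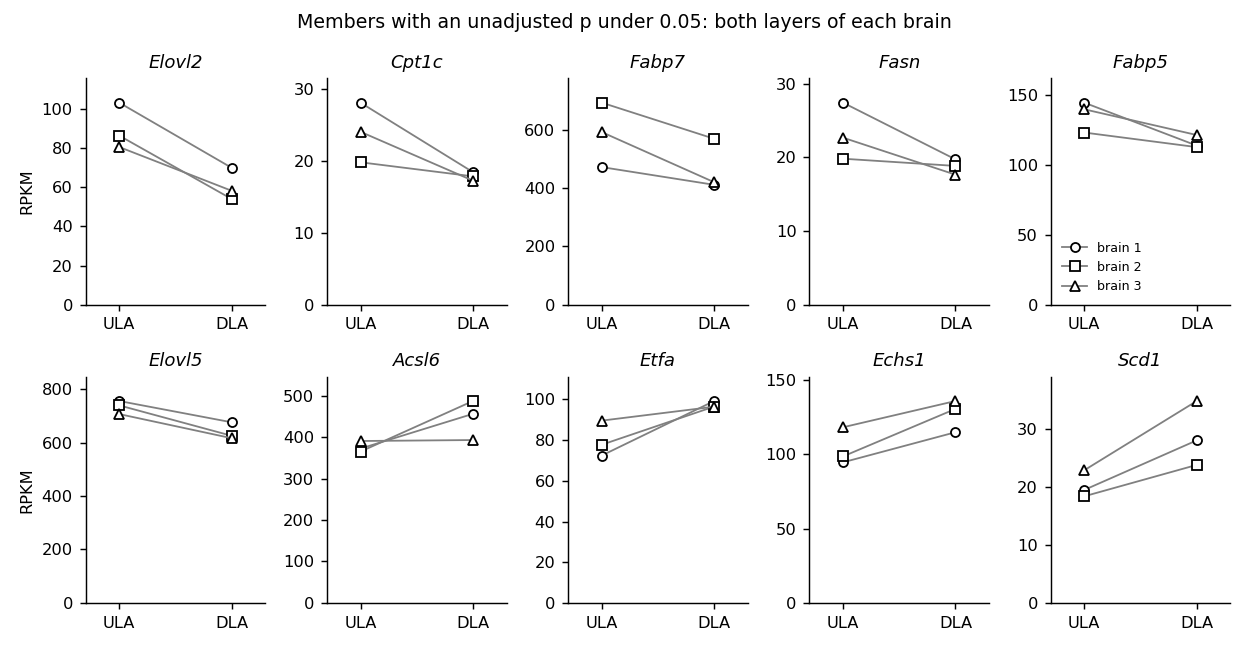
RPKM in the ULA and the DLA library of each brain (circle, square and triangle for brains 1, 2 and 3, joined by a line) for the 10 members with an unadjusted p under 0.05, each axis starting at 0. Elovl2, Cpt1c, Fabp7, Fasn, Fabp5 and Elovl5 lie higher in the ULAs of each brain, and Acsl6, Etfa, Echs1 and Scd1 lie higher in the DLAs of each brain.

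The fatty acid binding proteins carry fatty acids through the cytoplasm. Fabp7, the form typical of radial glia and astrocytes, measured 473, 695 and 593 RPKM in ULAs and 412, 570 and 421 RPKM in DLAs. The ULA library was higher in every brain, but the groups overlapped because the levels differed between brains. The difference was 0.33 on the log2 scale (SE 0.097, 95% confidence interval 0.11 to 0.54) and did not pass (adjusted p = 0.141, limma with Benjamini-Hochberg adjustment). It passed with quantile normalization (adjusted p = 0.042), where the range over 11 alternatives was 0.042 to 0.619. Fabp5, which is found in many cell types, measured 145, 123 and 140 RPKM in ULAs and 114, 113 and 121 RPKM in DLAs. Its groups did not overlap, and its log2 fold change of 0.22 (SE 0.096) did not pass (adjusted p = 0.283). The pair summed to 618, 818 and 733 RPKM in ULAs and to 526, 683 and 542 RPKM in DLAs.

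In the synthesis of fatty acids from malonyl-CoA, Fasn encodes fatty acid synthase. It measured 27.5, 19.8 and 22.7 RPKM in ULAs and 19.7, 18.9 and 17.7 RPKM in DLAs. The groups were apart by a small margin, from 19.7 RPKM in the highest DLA library to 19.8 RPKM in the lowest ULA library. On the log2 scale the difference was 0.29 (SE 0.117) and did not pass (adjusted p = 0.260, limma with Benjamini-Hochberg adjustment), and it was 0.15 after correction for mRNA length. Acaca, the cytosolic acetyl-CoA carboxylase that makes malonyl-CoA, measured 9.75 ± 0.653 RPKM in ULAs and 9.02 ± 1.41 RPKM in DLAs (SD, n = 3), with an interval of -0.20 to 0.42. Acacb, the carboxylase at the mitochondrial membrane, measured 0.427 ± 0.205 and 0.537 ± 0.102 RPKM (SD, n = 3), below the level required for a test. Of the 9 genes tested for synthesis, desaturation and elongation, 6 had an estimate above 0 and 3 below, with a median log2 fold change of 0.079, a direction that flipped to -0.026 (4 above, 5 below) after correction for mRNA length. The median was 0.115 without brain 1, 0.037 without brain 2 and 0.086 without brain 3.

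Activation to acyl-CoA was represented by some of the most abundant mRNAs of the set. Acsbg1, a bubblegum type acyl-CoA synthetase of brain, measured 949, 930 and 1018 RPKM in ULAs and 954, 1123 and 917 RPKM in DLAs. The groups overlapped and the brains differed in direction, with a log2 fold change of -0.04 and an interval of -0.28 to 0.19. Acsl6, the long chain acyl-CoA synthetase of neural tissue with a preference for docosahexaenoic acid, measured 372, 365 and 390 RPKM in ULAs and 456, 487 and 393 RPKM in DLAs. The DLA values were all above the ULA values, but in brain 3 by only 0.009 on the log2 scale. A log2 fold change of -0.24 (SE 0.104) did not pass (adjusted p = 0.293, limma with Benjamini-Hochberg adjustment). An antisense row (ENSMUSG00000085888, mean 315 RPKM) shares 202 exon bases, or 6.6% of the length, with Acsl6. No strand setting was given for the counting, and reads from the shared stretch cannot be told apart.

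Acsl3, another long chain synthetase, measured 476 ± 62.0 RPKM in ULAs and 513 ± 35.3 RPKM in DLAs (SD, n = 3), with an interval of -0.34 to 0.12, and shares 10.6% of its length with Utp14b on the same strand. The other 3 synthetases were low. Acsl4, with a preference for arachidonic acid, had a mean of 4.96 RPKM over the 6 libraries, Acsl1 had 2.01 RPKM, and Acsl5 had 1.43 RPKM. Their log2 fold changes were -0.06, 0.10 and 0.20 with overlapping groups, and the intervals included 0 for each.

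The carnitine shuttle brings acyl groups into mitochondria. Cpt1a, the carnitine palmitoyltransferase of the outer membrane and the entry point of the shuttle, measured 45.7, 38.8 and 41.4 RPKM in ULAs and 40.8, 35.6 and 32.2 RPKM in DLAs. The ULA library was higher in each brain while the groups overlapped, with a log2 fold change of 0.21 and an interval of -0.02 to 0.44. Cpt1c, the brain form that lies at the endoplasmic reticulum and has little of this activity, measured 28.1, 19.8 and 24.1 RPKM in ULAs and 18.5, 17.9 and 17.3 RPKM in DLAs. Its groups did not overlap, and the log2 fold change of 0.39 (SE 0.121, 95% confidence interval 0.13 to 0.66) did not pass (adjusted p = 0.152, limma with Benjamini-Hochberg adjustment). Cpt1c shares 366 exon bases, or 13.1% of its length, with an antisense row (286968, mean 14.3 RPKM). Cpt2, which returns the acyl group to coenzyme A inside, measured 32.7 ± 3.95 RPKM in ULAs and 37.0 ± 3.73 RPKM in DLAs (SD, n = 3), with an interval of -0.45 to 0.10.

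Among the acyl-CoA dehydrogenases, which open each round of oxidation, the genes for long chains were the most abundant. Acadl measured 101, 104 and 116 RPKM in ULAs and 96.0, 103 and 113 RPKM in DLAs. Values were nearly equal within each brain, with a log2 fold change of 0.04 and an interval of -0.17 to 0.24. Acadvl, for very long chains, measured 97.4 ± 11.8 and 108 ± 14.1 RPKM in ULAs and DLAs, and Acadm, for medium chains, measured 40.0 ± 4.20 and 43.3 ± 1.25 RPKM (SD, n = 3). Acads, for short chains, was lowest at 12.5 ± 1.13 RPKM in ULAs and 15.0 ± 2.75 RPKM in DLAs (SD, n = 3). Its groups were barely apart, with 13.36 RPKM in the highest ULA library and 13.38 RPKM in the lowest DLA library, both of brain 3. The intervals of all 4 included 0.

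For the later steps, Echs1 encodes the short chain enoyl-CoA hydratase. It measured 94.6, 98.6 and 118 RPKM in ULAs and 115, 131 and 136 RPKM in DLAs. The DLA library was higher in every brain, with a small overlap between brains. The log2 fold change was -0.29 (SE 0.095, 95% confidence interval -0.51 to -0.08) and did not pass (adjusted p = 0.174, limma with Benjamini-Hochberg adjustment). Acaa2, the thiolase that cleaves off acetyl-CoA, was the most abundant gene of these steps at 132, 124 and 161 RPKM in ULAs and 152, 166 and 164 RPKM in DLAs. It too was higher in the DLAs of each brain with overlapping groups, and its log2 fold change was -0.22 with an interval of -0.45 to 0.02.

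Hadha and Hadhb encode the subunits of the mitochondrial trifunctional protein. Hadhb measured 29.3 ± 1.62 RPKM in ULAs and 31.7 ± 1.55 RPKM in DLAs, and Hadha measured 15.4 ± 0.659 and 17.1 ± 1.78 RPKM (SD, n = 3). Hadh, the dehydrogenase for shorter hydroxyacyl-CoAs, measured 77.2 ± 6.19 and 79.1 ± 5.58 RPKM (SD, n = 3). Decr1, an auxiliary reductase for unsaturated fatty acids, measured 30.1 ± 2.73 and 31.3 ± 1.54 RPKM, and Ehhadh, the bifunctional enzyme of peroxisomes, measured 7.81 ± 0.386 and 8.47 ± 0.271 RPKM (SD, n = 3). The intervals of these 5 genes all included 0, and the groups were apart for Hadhb and Ehhadh, with the DLAs higher.

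Electrons from the acyl-CoA dehydrogenases pass to the electron transfer flavoprotein, a dimer of the products of Etfa and Etfb. Etfa measured 72.5, 77.8 and 89.6 RPKM in ULAs and 99.2, 96.5 and 96.5 RPKM in DLAs. The 3 DLA libraries were close together and above every ULA library. The log2 fold change of -0.29 (SE 0.103, 95% confidence interval -0.52 to -0.06) did not pass (adjusted p = 0.211, limma with Benjamini-Hochberg adjustment). Without brain 3 it passed (adjusted p = 0.0463), over a range of 0.0463 to 0.931 in 11 alternatives. Etfb measured 189, 171 and 201 RPKM in ULAs and 199, 233 and 218 RPKM in DLAs, with overlapping groups and an interval of -0.44 to 0.02. Etfdh, the dehydrogenase that hands the electrons to ubiquinone, measured 46.9 ± 3.58 RPKM in ULAs and 54.0 ± 2.80 RPKM in DLAs (SD, n = 3), with groups apart and an interval of -0.42 to 0.02.

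Of the 14 genes of mitochondrial and peroxisomal oxidation from the dehydrogenases to Etfdh, 13 had an estimate below 0 (lower in ULAs) and 1 above, against 55.0% below 0 over all rows tested. None of the 14 passed in limma, and 2 had an unadjusted p under 0.05 with the higher level in DLAs, against 10.8% of all rows. Levels were higher in the DLAs of all 3 brains for 9 of the 14 (23.2% of all rows), and the groups were apart with DLAs higher for 5 of them (9.27% of all rows). The median log2 fold change was -0.143, and it was -0.159, -0.197 and -0.014 in brains 1, 2 and 3, so that brain 3 lay near 0. The median was -0.130 without brain 1 (13 of 14 below 0), -0.098 without brain 2 (11 of 14 below 0) and -0.215 without brain 3 (13 of 14 below 0). Summed over the 14 genes, the level was 926, 921 and 1073 RPKM in ULAs and 1034, 1143 and 1107 RPKM in DLAs, with overlapping groups.

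These mRNAs were short, with a median length of 1868 bases against 2444 bases over all rows, and shorter mRNAs tended to lower ULA to DLA ratios in each brain. After correction for mRNA length, 12 of the 14 were below 0 with a median of -0.120, and after quantile normalization 11 of the 14 were below 0 with a median of -0.092. Over the 37 members, the rank correlation of the difference with length was 0.153, 0.457 and -0.120 in brains 1, 2 and 3. Oligodendrocyte and hemoglobin genes were also higher in DLAs, and their part in the lower ULA values was not tested.

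**Figure D4:**
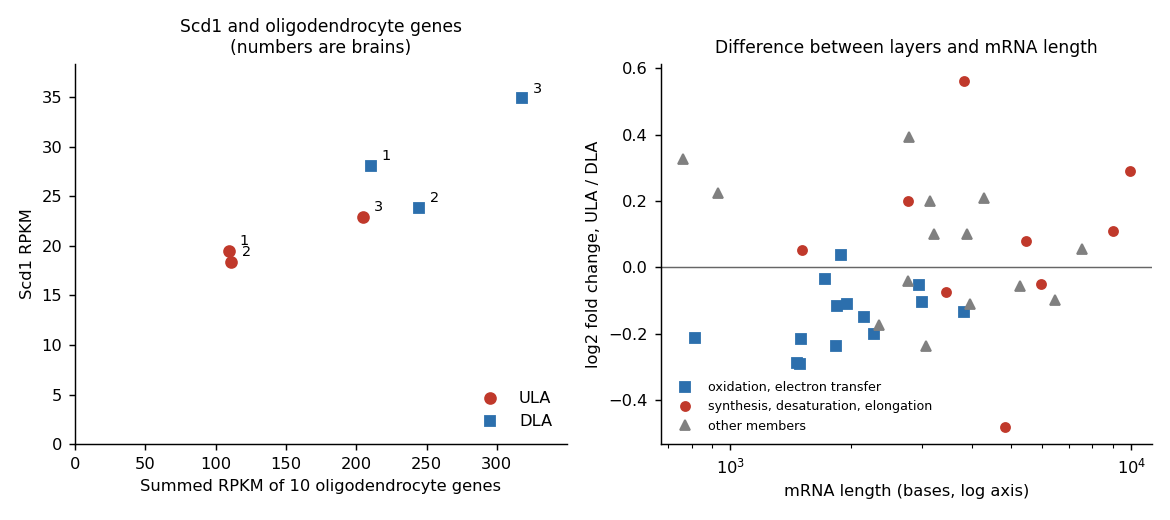
Left, RPKM of Scd1 against the summed RPKM of 10 oligodendrocyte genes in the 6 libraries, numbered by brain, where every DLA library is higher than every ULA library on both axes, with brain 3 of the ULAs (sum of 205 RPKM) next to the lowest DLA library (210 RPKM). Right, log2 fold change of each member against mRNA length (log axis), where 13 of the 14 oxidation genes (blue squares) lie below 0 and 6 of the 9 synthesis, desaturation and elongation genes (red circles) lie above 0, the latter falling to 4 of 9 after correction for length.

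The regulators showed small differences. Ppargc1a, a coactivator of mitochondrial genes, measured 36.7, 44.1 and 28.8 RPKM in ULAs and 41.0, 38.7 and 36.4 RPKM in DLAs. Brain 2 went against the other 2 brains, and the interval was -0.37 to 0.17. Ppara, the nuclear receptor that governs oxidation genes in liver, measured 11.6 ± 1.1 RPKM in ULAs and 11.1 ± 0.487 RPKM in DLAs, and Ppard, a more widely expressed receptor of the same family, measured 3.21 ± 0.032 and 2.92 ± 0.104 RPKM (SD, n = 3). The groups of Ppard were apart, yet its log2 fold change of 0.10 had an interval of -0.21 to 0.41.

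A wider list of 91 other genes of fatty acid metabolism was counted in the same fit. Of these, 83 were in the table and 72 were tested, with 30 estimates above 0, 42 below and a median log2 fold change of -0.060. None passed as higher in ULAs (0.714% of all rows) and 1 passed as higher in DLAs (0.914% of all rows). At an unadjusted p under 0.05, 4 were higher in ULAs (5.64% of all rows) and 8 in DLAs (10.8% of all rows), so that these shares were near those over all rows. The gene that passed was Mlycd, malonyl-CoA decarboxylase, which removes the malonyl-CoA that inhibits Cpt1a. Mlycd measured 8.21, 3.10 and 9.41 RPKM in ULAs and 29.2, 4.06 and 25.3 RPKM in DLAs. The DLA library was higher in each brain, but brain 2 was low in both layers and the groups overlapped. ULAs thus differed from DLAs by -1.12 on the log2 scale (SE 0.222, limma, Benjamini-Hochberg adjusted p = 0.038). The call was lost without the brain in the model (0.578), with no filter (0.431), after correction for mRNA length (0.125) and without the variance trend (0.0853), over a range of 0.000416 to 0.578. Of these 4 settings, only the correction for mRNA length can change the log2 fold change, which was -1.08 there. By subset as listed, the 13 genes grouped as peroxisomal had a median log2 fold change of 0.019. The 16 grouped as other mitochondrial genes, with Decr2, Slc22a5 and Acot7 among them, had -0.111. That group is thus a list and not a strict set of mitochondrial enzymes. The median was -0.075 for the 21 other genes of synthesis and elongation and 0.005 for the 10 of binding, uptake and storage. It was -0.066 for the 7 other regulators and -0.041 for the 5 of ketone bodies.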

How the data were processed

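Sorted astrocytes of 3 brains gave 6 libraries (SMART-Seq v4 and Nextera XT kits), which were sequenced with single 36-base reads. The values deposited by the authors are RPKM, truncated to hundredths. The submitters' processing notes name bcl2fastq 1.8.4, CASAVA 1.8.2 and the build mm9 with no roles, and the aligner and the counting program were not given in the sources used here. Read depth was recovered from the RPKM steps of rows up to 500 bases, where 100% of the values equalled a whole number of reads divided by the depth (as RPM) once truncated to hundredths (at most 77.8% at the next best depth). Multiples of this depth also match, so the lowest was taken, and it gives precision only. All 6 value columns were mapped to samples, and 0 were left over.

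Rows whose mean over the libraries reached 1 RPKM were compared on log2(RPKM + 1) with limma 3.58.1 (lmFit, eBayes with trend) in R 4.3.3, with brain and layer as terms, 2-sided, and Benjamini-Hochberg adjustment over all rows. On this scale the change of genes at low levels is understated. The study compares the layers by a test paired over brains. The deviations of same-numbered libraries from the mean of their layer were correlated (r = 0.422, 0.333 and 0.341 across genes), so the number was taken as the brain. The fit was tested on simulated data, which cannot show how well the model suits these RPKM values. Tables and figures were made in Python 3.11.15 with numpy 2.4.6, pandas 2.3.3 and matplotlib 3.10.9.

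Members with an unadjusted p under 0.05 and the most abundant of each role are given in every library, the others by means, ranges and counts, and other pathway genes only where they passed. The members and lists were chosen with earlier results of these data known. Alternatives were a fit without the brain, 0.1 as pseudocount, all rows without a filter, a stricter filter at 5 RPKM, centring on the median, quantile normalization, a correction for mRNA length in each brain (loess, span 0.5), no variance trend and each brain left out. Promoter windows came from a RefSeq table on GRCm38.p6, and proteins were not used here.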

Additional observations from a re-analysis of the deposited data

How the results depend on the processing

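The median log2 fold change of the members, -0.054, was -0.002 with quantile normalization and stayed between -0.079 and -0.028 with each brain left out. Of the members, 1 passed as higher in ULAs. This count was 0 with no replicate block (unadjusted p under 0.05: 2 members), 0 with no filter on low RPKM (6 members), 0 without the variance trend (3 members), 2 with quantile normalization and 0 to 1 with each brain left out. The count of members higher in DLAs, 0 (unadjusted: 4 members), was 1 with a mean RPKM of at least 5, 1 with length correction and 0 to 2 with each brain left out. Over all rows, 100 passed as higher in ULAs and 128 as higher in DLAs. These became 23 and 18 with no replicate block, that is, without pairing by brain, 0 and 0 with no filter, 64 and 77 with length correction, and 65 and 79 without the variance trend. They were 138 and 103 with quantile normalization, and 96 to 431 and 121 to 695 with each brain left out, the highest in both directions without brain 3. The causes were not tested. With brain 3 left out, 9 members had an unadjusted p under 0.05 in the direction of DLAs. The 10 members with an unadjusted p under 0.05 kept their direction in all 11 alternatives, most of which could not reverse it. The fits without the brain, with another filter or without the variance trend return the same estimates. Each of the 10 had the same direction in all 3 brains, so neither leaving a brain out nor another pseudocount could reverse it. The direction could change only with median centring, quantile normalization or length correction. The limits are 3 brains, an amplified cDNA, a trend with mRNA length, and RNA of other cells that differed between the layers. Oligodendrocyte and hemoglobin RNA was higher in DLAs, and 3 of 4 pericyte and smooth muscle genes were higher in the ULAs of every brain.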
